A study of Mus musculus with 2 samples.

Results

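The genes considered here encode the 8 receptor chains for interleukin (IL)-2, IL-4, IL-7, IL-9, IL-15 and IL-21: Il7r, Il4ra, Il2ra, Il2rb, Il2rg, Il21r, Il9r and Il15ra. They were described by the Lef1 peaks of the deposited wild-type peak list that lay inside a gene body or within 50 kb of one in the mm10 genome. Of the 2052 listed peaks, 2 met that rule, and they lay near 3 of the 8 genes. Lef1 is a transcription factor that binds DNA through an HMG box, and with Tcf1 it belongs to the TCF/LEF family. Its sites were mapped by chromatin immunoprecipitation with sequencing (ChIP-seq) using the anti-Lef1 antibody C18A7. The wild-type library came from conventional CD4+ T cells (TCRb+, CD4+, CD25-) of C57BL/6 mice, taken from the spleen at 8 to 10 weeks of age. The control library came from CD4+ T cells (TCRb+, CD4+) of C57BL/6 CD4-Cre+ Lef1 fl/fl mice, in which a Cre recombinase driven by the CD4 promoter deletes Lef1 in developing T cells. There was 1 library of each kind, so no difference could be tested over samples. Both libraries are labelled as naive CD4 T cells, although no naive marker is among the listed surface markers. A CD25 gate is listed for the wild-type cells only, and the series design names a GFP- gate for them as well. Whether the control cells were sorted by the same gates is not clear from the labels. A peak list holds no expression level, so the labelled cell type could not be checked against marker genes.

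These chains build the receptors of the common gamma chain cytokines. The common gamma chain, the product of Il2rg, pairs with a chain specific to each cytokine, and in the receptors for IL-2 and IL-15 with a further chain as well. Inside the cell the receptors pass their signal through the kinases JAK1 and JAK3 to STAT transcription factors, which support survival, growth and effector choice in T cells. Resting naive CD4 T cells depend on IL-7 to survive and carry its receptor. CD25, the product of Il2ra, marks regulatory and recently activated cells. TCF/LEF proteins bind DNA at the short sequence CTTTG followed by A or T.

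The highest-scoring of the 2 peaks lay in the space between Il4ra and Il21r. Il4ra encodes the alpha chain of the receptors for IL-4 and IL-13, and Il21r the specific chain of the IL-21 receptor. The genes are neighbours on chromosome 7 (Il4ra, chr7:125552271-125579474; Il21r, chr7:125603252-125634397; both on the plus strand), with 23.8 kb between them. The peak, chr7:125588832-125588915, lay 9.36 kb downstream of the Il4ra body and 14.3 kb upstream of the Il21r body. No other protein-coding gene lay within 50 kb of it, and the next, Gtf3c1, was 52.0 kb away. By position the peak can be given to either receptor gene, and counting it for both uses 1 site for 2 of the 3 genes.

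The authors gave each peak a score, the −log10 of its p-value in the call of wild-type against Lef1-deficient reads. It was 8.74 for the peak between Il4ra and Il21r. That put it at rank 60 of the list, with 2.88% of peaks scoring higher, while the whole list ran from 4.01 to 38.17 with a median of 4.40. The peak was 84 bp wide against a median of 79 bp. Among peaks of high score it was narrow: the 97 peaks with a score of at least 8 had a median width of 213 bp, and 16 of them were no wider than this one. The plot of score against width shows this peak above most others of its width. A score reflects the excess of reads in this pair of libraries and not how well it would repeat.

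The next listed peak below the site was 99.9 kb away, inside Nsmce1 (score 4.35), and the next above it 811 kb away (score 5.08). Of 1999 gaps between listed neighbours on the autosomes, 1633 were longer than the gap below and 847 longer than the gap above. The site was thus not set unusually far from other listed peaks. The listed peak in Nsmce1 lay 63.4 kb from Il4ra, just outside the 50 kb limit.

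**Figure D1:**
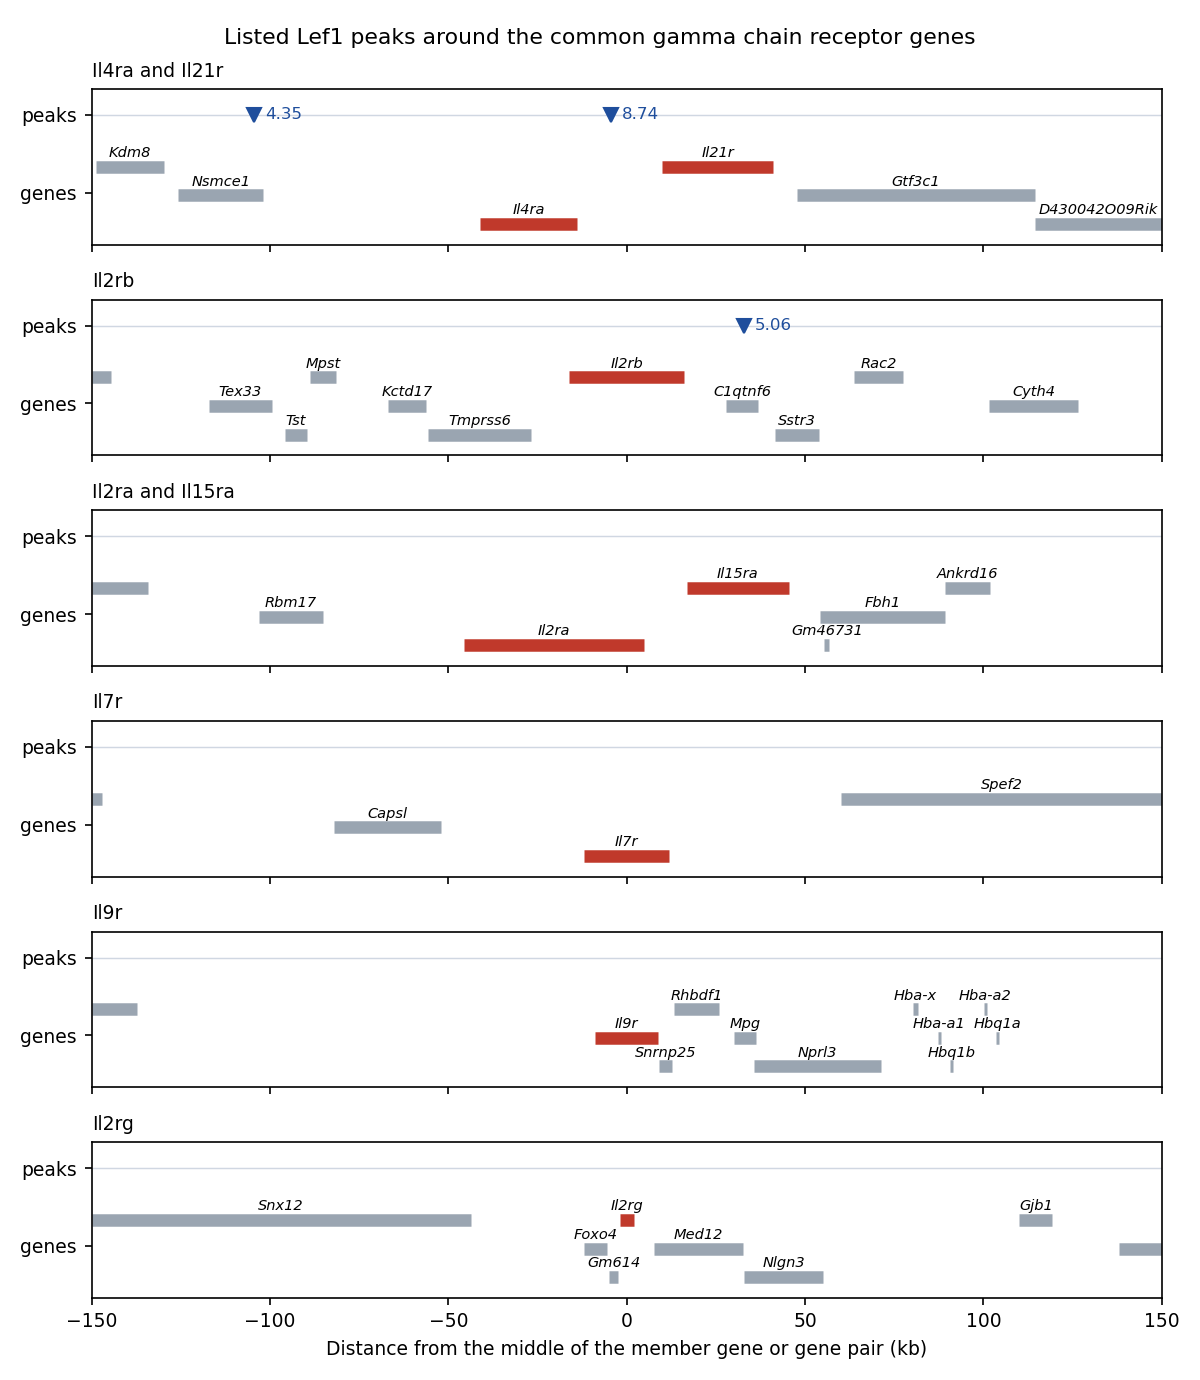
Protein-coding genes (bars; the receptor genes in red) and listed Lef1 peaks (triangles with the authors' −log10 p score) within 150 kb of the middle of each receptor gene or gene pair, by distance in kb. A peak of 8.74 stands between Il4ra and Il21r, with one of 4.35 inside Nsmce1 beyond 50 kb, and one of 5.06 stands beside Il2rb, inside C1qtnf6. The other 4 panels hold no peak.

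The starts of Il4ra and Il21r lie on either side of this peak, and neither was under a listed peak. The centre of the peak was 36.6 kb from the annotated start of Il4ra and 14.6 kb from that of Il21r. Their promoters are shown because theirs are the receptor gene starts closest to the strongest site, together with that of Il15ra, the one receptor gene whose promoter held a full TCF/LEF word. Each sequence runs 5′ to 3′ on the strand of its gene from 250 bases before the start to 50 bases from it onward (RefSeq, GRCm38.p6), and capitals mark CTTTG or its reverse complement CAAAG. The Il4ra promoter is chr7:125552021-125552320, the Il21r promoter chr7:125603179-125603478, and the second annotated promoter of Il15ra chr2:11705462-11705761, all on the plus strand.
Il4ra: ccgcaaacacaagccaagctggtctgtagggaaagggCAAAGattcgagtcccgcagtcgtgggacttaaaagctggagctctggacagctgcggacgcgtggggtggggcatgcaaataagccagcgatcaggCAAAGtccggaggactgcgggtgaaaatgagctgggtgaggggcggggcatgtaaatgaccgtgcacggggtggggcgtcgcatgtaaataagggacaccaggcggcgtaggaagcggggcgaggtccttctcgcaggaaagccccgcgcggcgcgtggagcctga
Il21r: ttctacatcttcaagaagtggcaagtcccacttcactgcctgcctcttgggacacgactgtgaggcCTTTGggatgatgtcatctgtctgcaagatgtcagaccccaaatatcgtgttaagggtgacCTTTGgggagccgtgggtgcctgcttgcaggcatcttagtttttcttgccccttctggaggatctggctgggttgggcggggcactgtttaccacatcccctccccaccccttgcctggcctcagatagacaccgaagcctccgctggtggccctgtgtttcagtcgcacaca
Il15ra: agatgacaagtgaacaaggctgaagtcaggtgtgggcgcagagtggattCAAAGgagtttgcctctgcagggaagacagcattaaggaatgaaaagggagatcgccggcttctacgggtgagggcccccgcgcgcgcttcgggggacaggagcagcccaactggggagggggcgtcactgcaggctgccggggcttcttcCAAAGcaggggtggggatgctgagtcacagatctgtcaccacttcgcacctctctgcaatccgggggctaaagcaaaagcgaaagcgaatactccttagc

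With the start as position 0, the first bases of the matches were at -213 and -116 in Il4ra, at -184 and -123 in Il21r, and at -201 and -50 in the second Il15ra promoter. The 2 matches in Il4ra read CAAAG and those in Il21r read CTTTG. On the strand that reads CTTTG, the next base was C in Il4ra and G in Il21r, not A or T. Neither of these promoters thus held a full TCF/LEF word. In Il15ra only the match at -201 was part of one. Over all receptor genes, 7 of 8 had an entry in the promoter table, with 8 promoters, as Il15ra had 2 and Il2rb had none. CTTTG was found on either strand in promoters of 4 of these 7 genes (Il4ra, Il21r, Il9r and Il15ra). By promoter, 5 of the 8 held it, against 53.9% of the 32851 promoters in the table. The longer words of 7 letters, in which CTTTG is followed by AA, AT, TA or TT and which therefore overlap it, were also searched on both strands. They were found in 1 of the 7 genes, Il15ra, and by promoter in 1 of the 8, against 16.9% of all promoters. The promoters of Il7r, Il2ra and Il2rg held none of these words. None of the 8 promoters was under a listed peak. In the whole table only 312 of 32851 were, so the absence among 8 says little. The match in Il15ra was 501 kb from the nearest listed peak.

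The second peak lay beside Il2rb, which encodes the beta chain shared by the IL-2 and IL-15 receptors (chr15:78479256-78511621). It was at chr15:78528224-78528290, 16.6 kb beyond the high-coordinate end of Il2rb, with a score of 5.06 and a width of 67 bp. It ranked at 456, with 22.2% of the list scoring higher, and 1 other peak had the same score. This peak lay inside another gene, C1qtnf6, which encodes a secreted protein of the C1q and TNF related family, and its centre was 1.39 kb from the annotated start of C1qtnf6. In all, 4 protein-coding genes lay within 50 kb of it. Besides Il2rb and C1qtnf6 these were Sstr3, a somatostatin receptor gene, at 8.72 kb, and Rac2, which encodes a small GTPase of blood cells, at 30.9 kb. C1qtnf6 and Sstr3 were nearer to it than Il2rb. No other peak was listed within 551 kb above or 644 kb below Il2rb.

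The other 5 receptor genes had no listed peak within 50 kb, and none of the 8 had a peak inside its body. Il7r, which encodes the alpha chain of the IL-7 receptor, was the furthest from any (chr15:9506159-9529941). Its nearest listed peak was 1.99 Mb below it (chr15:7519217-7519272, score 4.40, the median of the list), with Egflam as the closest gene, and the next on the other side 2.59 Mb above it, inside Zfr. The stretch of 4.6 Mb between these neighbours held 31 protein-coding genes and no listed peak. Of 1999 gaps between listed neighbours on the autosomes, 87 were longer, and the median gap was 0.612 Mb. Of all protein-coding genes, 8.32% were further than Il7r from a listed peak.

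The deposited names number the peaks in order of position over all chromosomes, and the numbers reach 33876, so most of the numbered calls are not in the list. The numbers on either side of Il7r were 10974 and 11036, which leaves 61 unlisted numbers in the 4.6 Mb stretch, or 13.3 per Mb. Over the autosomes as a whole there were 13.0 unlisted numbers per Mb. The stretch around Il7r thus lacked listed peaks but not numbered calls. The positions and scores of the unlisted calls were not used here, so how close any of them lay to Il7r is unknown.

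Il2ra, the gene of CD25, and Il15ra, which encodes the alpha chain that binds and presents IL-15, are neighbours on chromosome 2 (chr2:11642792-11693194 and chr2:11705172-11733985), 12.0 kb apart. They shared the same nearest listed peak (chr2:11204443-11204610, score 6.95), inside Prkcq, the gene of protein kinase C theta. It lay 438 kb from Il2ra and 501 kb from Il15ra. The stretch of 1.93 Mb around the pair held 18 unlisted numbers, or 9.34 per Mb. CD25 was itself the marker that the wild-type sort excluded, and the labels name no such gate for the control. Whether this bears on the lack of a listed peak at Il2ra was not tested.

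Il9r, the gene of the IL-9 receptor alpha chain (chr11:32187544-32205283), was the closest of the 5 to a peak. That peak lay 176 kb below it (chr11:32011886-32012025, score 8.01), inside Nsg2, and no peak was listed for 1.23 Mb on the other side.

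Il2rg, the gene of the common gamma chain, lies on chromosome X (chrX:101264385-101268255). Its nearest listed peak was 264 kb above it, inside Taf1 (score 5.44). Chromosome X held 15 listed peaks against 2018 on the autosomes, and 12 of its 966 protein-coding genes (1.24%) had one within 50 kb. The median X-linked gene was 5.18 Mb from a listed peak, so that 95.9% of X-linked genes were further away than Il2rg. The sources used here do not say whether any filter was applied to the chromosome.

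**Figure D2:**
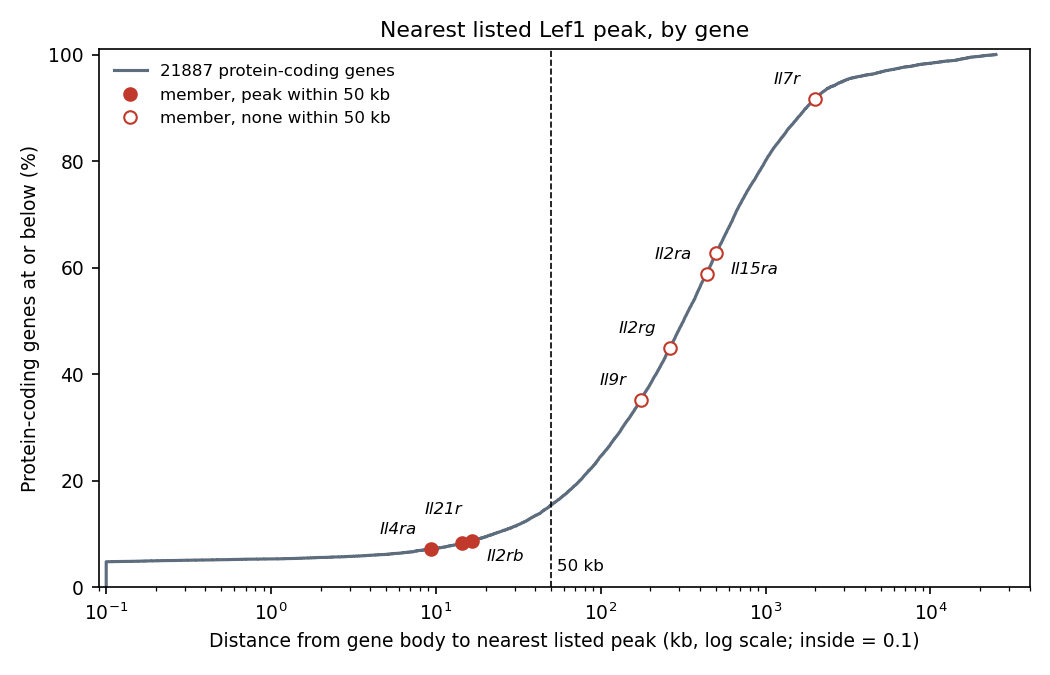
Cumulative share of the 21887 protein-coding genes (%) by distance from the gene body to the nearest listed Lef1 peak (kb, log scale), with the 8 receptor genes marked on the curve. Il4ra, Il21r and Il2rb lie left of the 50 kb line, and Il7r, at 1.99 Mb, lies near the upper end.

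In order of distance the receptor genes were thus Il4ra (9.36 kb), Il21r (14.3 kb), Il2rb (16.6 kb), Il9r (176 kb), Il2rg (264 kb), Il2ra (438 kb), Il15ra (501 kb) and Il7r (1.99 Mb). Of all protein-coding genes, 92.8% were further from a peak than Il4ra, 91.7% than Il21r and 91.2% than Il2rb. The median gene was 317 kb from a peak (quartiles 102 and 796 kb). The 8 genes had 6 different nearest peaks, since Il4ra and Il21r share one and Il2ra and Il15ra another. Of the genes, 7 had a nearest peak with a score above the median of the list, Il7r being the exception. The share of all protein-coding genes with such a nearest peak was not counted. Of the 1668 peaks within 50 kb of any protein-coding gene, 543 scored above the median. That figure counts peaks in a window and not the nearest peaks of genes at any distance. It therefore gives no background for the 7 genes.

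**Figure D3:**
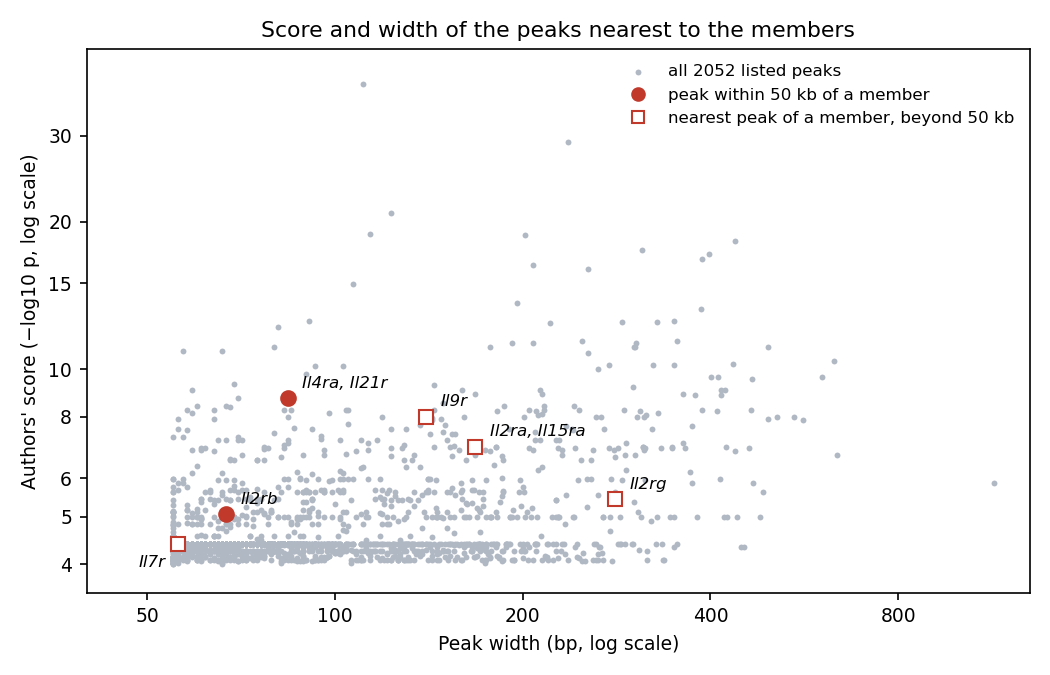
Width (bp) and authors' score (−log10 p) of all 2052 listed peaks, both on log scales, with the peaks nearest to the receptor genes marked. The peak of Il4ra and Il21r (8.74, 84 bp) and that of Il2rb (5.06, 67 bp) lie on either side of the median width of 79 bp, and the peak nearest to Il7r lies at 4.40 and 56 bp.

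A peak within 50 kb was found for 3 of 8 receptor genes, or 37.5% (95% exact Clopper-Pearson interval 8.52 to 75.5%), where 15.5% of all protein-coding genes had one. The interval takes the 8 genes as independent, which the pairs of neighbours are not, and it includes the share of all genes. With peaks above the median score alone the same 3 genes were counted, against 5.84% of all genes. That share is below the interval, but Il4ra and Il21r count by 1 shared peak. The interval is therefore too narrow and cannot decide whether the shares differ. With peaks scoring at least 6 there were 2, Il4ra and Il21r, by their shared peak, against 2.39%. When each peak was given only to its nearest gene, 1 of the 8 was left, Il4ra, as against 6.76% of all genes. At 10 kb it was also Il4ra alone, against 7.33% of genes, and for gene bodies none against 4.51%. At 100 kb the same 3 genes were counted, against 24.6%. Per length of sequence, the windows around the 8 genes held 2 peaks in 0.851 Mb, or 2.35 per Mb (95% exact Poisson interval 0.285 to 8.49), and the windows of all protein-coding genes 0.989 per Mb. Peaks above the median score left the density around the 8 genes at 2.35 per Mb and that of all protein-coding genes at 0.322 per Mb. The Poisson interval includes both densities of all genes. The counts within 50 kb rest on these 2 peaks. The receptor genes were chosen with earlier results of these data known, and neither interval takes this into account. The intervals therefore cannot decide whether these genes differ from all genes, and no test of the list was made.

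Among 8 genes of the JAK and STAT families, 5 (62.5%) had a listed peak within 50 kb, by 5 peaks, against 15.5% of all genes. The list was not limited to the kinases JAK1 and JAK3 named above, as it also held Jak2 and Tyk2. Of the 8, 3 were the nearest gene to a peak, against 6.76% of all genes. No test of these lists was made. Jak1, the kinase that serves the cytokine-specific chains, had 2 peaks inside its body (chr4:101175376-101175545, score 5.16, and chr4:101187336-101187816, score 4.99). Jak3, the kinase bound to the common gamma chain, had 1 of 4.23 at 41.9 kb upstream, closer to Unc13a. Stat5b, which carries IL-2 and IL-7 signals, had 1 inside it (chr11:100824089-100824176, score 4.94). The same peak lay 35.2 kb upstream of its neighbour and close relative Stat5a. Jak2 had 1 inside (5.12). Stat6, which carries the IL-4 signal, had none, and neither did Stat3, which carries that of IL-21, nor Tyk2. None of these peaks scored above 5.16, below the 8.74 of the peak between Il4ra and Il21r.

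Of 8 ligand genes, 2 had a peak within 50 kb (25%, against 15.5% of all genes). One lay 17.3 kb downstream of Il21 (chr3:37205261-37205468, score 6.84), with no closer protein-coding gene, whereas the peak beside Il21r was nearer to Il4ra. The other lay 25.1 kb upstream of Il9 (4.31), nearer to Fbxl21. Il2, Il13 and Il15 were among those with none. The genes of the partner chains Crlf2, Il13ra1 and Il13ra2 had none. With 15.5% of all genes having a peak, an absence among 3 genes says little.

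Of 15 genes listed here as negative regulators of cytokine signals, 6 (40%) had a peak within 50 kb, against 15.5% of all genes. As the nearest gene to a peak, 2 of the 15 were counted, against 6.76% of all genes. Ptprc, the gene of the CD45 phosphatase, had 1 inside it (12.57), the highest in these lists. Ptpn6, which encodes the phosphatase SHP-1, had 2 upstream, at 2.45 kb (5.53) and 11.8 kb (6.84), with Grcc10 and Atn1 nearer. Ptpn2, a phosphatase gene acting on JAK1 and JAK3, had 1 inside (4.25) and 1 at 0.956 kb (4.11). Cish, an inhibitor induced by STAT5, had 1 at 35.7 kb (4.35), nearer to Hemk1. Pias1 (4.25 at 39.6 kb) and Socs7 (4.40 at 46.4 kb) also had 1 each, both nearer to another gene. Ptpn1, Ptpn11 and Sh2b3 were among those with none.

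In the list of PI3K, Ras and survival genes, 4 of 18 (22.2%, against 15.5% of all genes) had a peak within 50 kb. Grb2, an adaptor leading to Ras, had 1 inside (5.41), and Gab2, a docking protein gene, 1 inside (4.40). Pik3ca (4.40 at 31.1 kb) and Bad (4.34 at 29.0 kb) had 1 each that lay nearer to other genes. Akt1, Akt2 and Bcl2 had none. Among genes of transcription factors known to act on Il7r or Il2ra, 5 of 14 (35.7%, against the same 15.5%) had a peak within 50 kb: Foxp1 (4.99 and 4.04, both inside), Runx1 (4.09 and 4.08, close neighbours inside), Rel (4.40, inside), Nfatc1 (4.40, inside) and Ets1 (4.83 at 44.0 kb). Foxo1, an activator of Il7r, had none, and neither did Foxp3 and Gabpa.

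**Figure D4:**
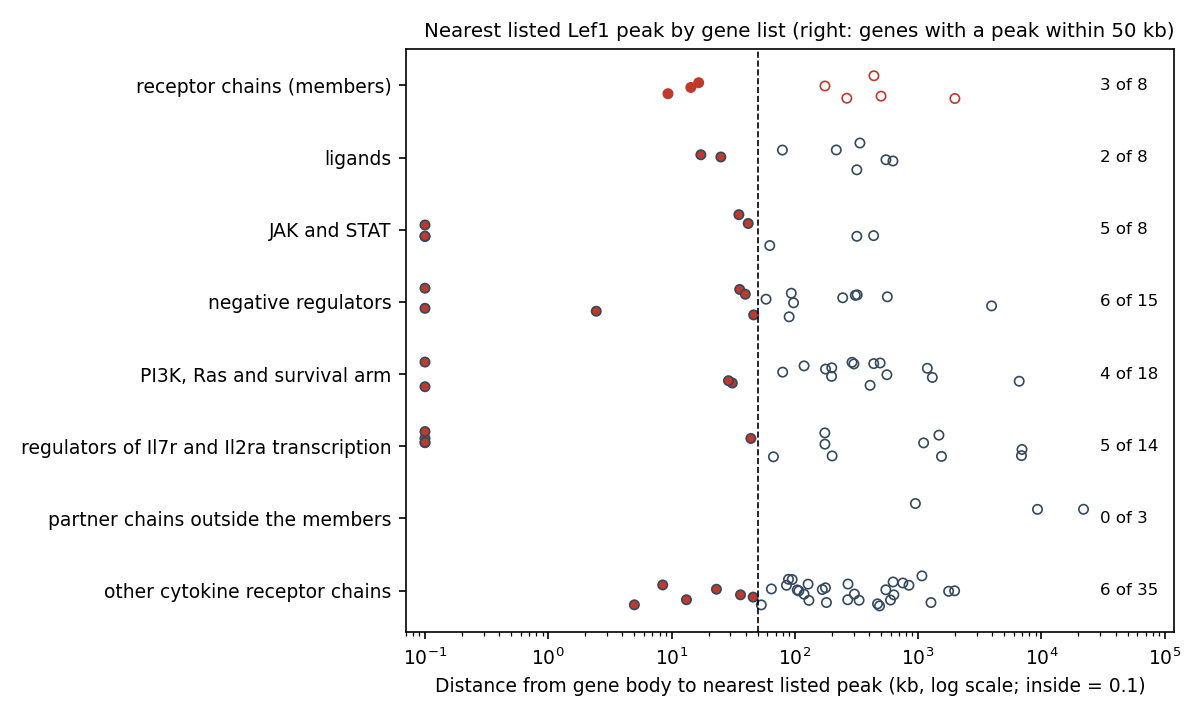
Distance from each gene body to the nearest listed Lef1 peak (kb, log scale, genes with a peak inside at 0.1) for the receptor genes and 7 lists of related genes, with filled points for genes within 50 kb (dashed line) and the count at the right. JAK and STAT genes have 5 of 8 within the line and the receptor genes 3 of 8.

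Other cytokine receptor genes had a peak in 6 of 35 cases (17.1%), close to the 15.5% of all genes. There were 8 such peaks in all, 4 of them at Il6st. The highest score among them was 8.72, at Il6st, the shared chain of the IL-6 receptor family, and it was also the gene whose strongest peak came closest in score to that of Il4ra, with a difference of 0.0111 over this single library. Its peak (chr13:112427604-112427673) was 70 bp wide and lay 36.4 kb upstream of the gene. The next closest in score were Ajm1 and Arhgap25, both at 8.87, with peaks inside the genes that were 416 and 378 bp wide. As at Il4ra and Il21r, 1 peak lay between 2 receptor genes at Ifnar1 and Ifngr2 (5.75), 23.1 kb downstream of the first and 13.2 kb upstream of the second. Il6ra (4.99 at 4.99 kb), Il10ra (4.40 at 45.9 kb, nearer to BC049352) and Il3ra (4.40 at 8.48 kb, nearer to Olfr31) were the others. Csf2ra, Csf2rb and Csf3r were among those with none.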

How the data were processed

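ChIP-seq with an anti-Lef1 antibody was done on 1 wild-type and 1 Lef1-deficient CD4+ T cell library. Bowtie2 2.3.4.1, MACS2 2.1.1, FastQC and mm10 are named, per the submitters' processing notes; their settings and any filter on the calls are not stated there. The authors deposited 1 peak list for the wild-type library, with the Lef1-deficient library as the control per the labels. Its values are −log10 p per the file headers. Read counts and depth are unknown.

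Starts were taken as 0-based, as in BED files, and raised by 1, so a start may be off by 1 base. Genes were 21887 protein-coding genes of RefSeq GRCm38.p6, the assembly of mm10, without exons, so exons and introns are not told apart. Strand and starts came from the RefSeq promoter table. Distances ran from the nearest edge of a peak to the gene body, and a peak could count for several genes. The scripts (Python 3.11.15, pandas 2.3.3, SciPy 1.17.1) were tested on simulated data. The receptor genes and the gene lists were chosen with earlier results of these data known. A further gene planned for the JAK and STAT list was left out of its counts and is not reported here. Named genes were all receptor genes, every list gene with a peak within 50 kb, the first 3 without one in the alphabet, nearer genes at a peak, and the 3 genes closest in score to Il4ra. Alternatives were other distances, peak centres, higher scores (above the median or at least 6), nearest genes, merging within 1 kb, all annotated genes and another motif. Intervals cover counting error only.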

Additional observations from a re-analysis of the deposited data

How the results depend on the processing

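The 3 receptor genes with a peak were the same by peak centres, within 100 kb, with peaks above the median score and with peaks merged within 1 kb. Within 100 kb the peaks rose from 2 to 3, with the one inside Nsmce1 added, and the density of 2.07 per Mb rests on these 3. With peaks scoring at least 6 there were 2 genes, Il4ra and Il21r, and 1 peak. Within 10 kb, and again by nearest gene, 1 gene (Il4ra) and 1 peak were left, and by gene bodies 0 of each. The number of protein-coding genes with a peak was 3384, and it became 987 by gene bodies, 1604 within 10 kb, 5388 within 100 kb, 1480 by nearest gene, 1278 with peaks above the median score, 523 with peaks scoring at least 6, and 6113 over all annotated genes. These changes follow from fewer or more peaks, genes or bases being counted. The density of peaks around the receptor genes stayed within its interval, between 2.07 and 2.72 per Mb, while that of all protein-coding genes was 0.322 per Mb with peaks above the median score, against 0.989. The number of receptor genes with a full TCF/LEF word in a promoter was 1. With the shorter CTTTG, whatever base followed it, the number was 4.

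The count of 3 genes within 50 kb rests on 2 peaks in 1 library. A gene without a listed peak is one with none past the authors' threshold. No paired analysis was possible because the 2 groups hold 1 library each. For the same reason no replicate was left out.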

Other observations

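Unlisted peak numbers differed between the stretches around the receptor genes. Between the listed neighbours of Il2rb, 693 kb apart, there were 18, or 26 per Mb, and between those of Il9r, 1.43 Mb apart, also 18, or 12.6 per Mb. In the 99.9 kb below the peak of Il4ra and Il21r there were 3, and in the 811 kb above it 11. Around Il2rg there were 11 in 2.06 Mb, or 5.34 per Mb, where chromosome X as a whole had 2.76 per Mb.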
